A study of Mus musculus with 6 samples.

Results

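Tachykinins and bombesin-like peptides are short amidated neuropeptides that, with their receptors, were examined here in brain tissue of male C57 mice. The genes were taken by name: Tac1, Tac2, Tacr1, Tacr3, Grp, Nmb, Grpr and Nmbr. Of these 8, the deposited expression table of 13170 genes holds 7, and all 7 had a mean of at least 1 FPKM (fragments scaled by the exon length of the gene and by the total of the library) over the libraries. Grpr, the gene of the receptor for gastrin-releasing peptide, was not analysed here, nor were the family genes Tac4, Tacr2 and Brs3. Poly(A) RNA was sequenced from 3 libraries of mice with high sexual motivation and 3 libraries of mice with low sexual motivation, all of the genotype labelled C57, with no treatment, age or time named. The title of the series names the medial amygdala, a limbic nucleus of social and sexual behaviour, whereas the tissue label reads brain and the RNA protocol writes PrL. The sources used here do not say whether a library came from 1 animal or a pool, nor how motivation was scored, so the p-values measure only the spread between these libraries.

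Tac1 encodes substance P and neurokinin A, and Tac2 encodes neurokinin B. Substance P acts mainly on the receptor NK1, the product of Tacr1, and neurokinin B on NK3, the product of Tacr3. Grp encodes gastrin-releasing peptide and Nmb encodes neuromedin B, the mammalian relatives of the frog peptide bombesin, and Nmbr encodes the receptor preferred by neuromedin B. All of these receptors couple mainly to Gq proteins, which activate phospholipase C, release calcium from internal stores and excite the cell. Tac1 and Tac2 are each expressed in peptide neurons of the extended amygdala and striatum. Tac2 signalling in the amygdala has been linked to fear and to the effects of isolation, and bombesin-like peptides to social behaviour, itch and breathing.

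The tachykinins are recognised by a shared carboxyl end, which is the part that binds the receptors. The stretches below come from the GENCODE transcripts of GRCm38 and are shown because they are what makes Tac1 and Tac2 1 family and sets Nmb apart. Each line is 11 codons long, 5′ to 3′, and ends with the last codon of the mature peptide. Capitals mark the 5 codons of the tachykinin signature, or the 4 last codons of neuromedin B.
Tac1, substance P: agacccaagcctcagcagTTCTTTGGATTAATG
Tac1, neurokinin A: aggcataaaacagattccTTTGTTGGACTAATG
Tac2, neurokinin B: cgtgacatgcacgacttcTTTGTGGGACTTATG
Nmb, neuromedin B: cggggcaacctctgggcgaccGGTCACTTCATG

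In the 15 signature bases, the stretches of neurokinin A and neurokinin B had 13 in common, those of substance P and neurokinin A 12, and those of substance P and neurokinin B 10. The stretch of substance P lies in exon 3 of the longest coding transcript of Tac1 at chr6:7556732-7556764 on the plus strand, and the other stretches are each split by an intron. Of the 4 protein-coding transcripts of Tac1, 2 hold both peptide ends, 1 holds 1 end and 1 holds 0, while the table gives 1 value for the whole gene. The expression values below therefore do not separate substance P from neurokinin A. In GRCm38, Tac1 lies on the plus strand of chromosome 6 from 7554879 to 7565834, Tac2 on the plus strand of chromosome 10 from 127724478 to 127731768, Tacr1 on the plus strand of chromosome 6 from 82402334 to 82560104, and Tacr3 on the plus strand of chromosome 3 from 134829007 to 134934579. Nmb lies on the minus strand of chromosome 7 from 80902227 to 80905076, and Nmbr on the plus strand of chromosome 10 from 14705591 to 14770850.

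The libraries held 13610474 to 19005492 fragments. These totals were recovered from the FPKM, which turned out to be whole numbers of fragments divided by the exon length of the gene and the total of the library, so that the fragments behind each value of 6 of the 7 genes are known. For Grp, whose GENCODE exon length did not give whole numbers, the fragments are the smallest whole numbers that fit the ratios between libraries. Its true fragments could be a multiple of these, and its Poisson intervals would then be too wide. Markers of the choroid plexus show what else the pieces of tissue held: Ttr was at 1290 and 4016 FPKM in low libraries 1 and 3 and at 33.5 to 102 in the other 4, and Kl was at 7.33 and 22.7 against 0.949 to 1.43. Of 12 listed markers of the amygdala and subpallium, 10 are in the table, and Isl1 and Lhx5 are not. The highest of them were Ecel1 at 14.9 to 19.8 FPKM, Tshz1 at 10.6 to 14.8 and Meis2 at 6.25 to 14.4. Esr1 was at 0.446 to 1.16 FPKM. The cortical and basolateral excitatory marker Slc17a7 was at 138 to 256 FPKM in every library, and the striatal marker Drd1 at 5.04 to 8.58.

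None of the 7 genes passed the comparison of the high with the low group by limma at an adjusted p under 0.05, and 1 of 7, Grp, had an unadjusted p under 0.05. Over all 12026 genes tested, limma called 0.00%, and the unadjusted p was below 0.05 for 8.39%. The ratio of the high to the low mean was 1.02 for Tac1, 1.13 for Tac2, 1.24 for Tacr1 and 1.27 for Tacr3, with a Tac1 level of 9.14 ± 2.29 FPKM for high and 8.96 ± 2.02 for low libraries (SD, n = 3 each). Tac2 was at 11.2 ± 7.13 against 9.87 ± 3.50. For Grp, Nmb and Nmbr the ratios were 0.687, 0.736 and 0.714. Grp was the 1 gene of the 7 whose groups did not overlap, where 14.9% of all tested genes did not overlap in either direction and 7.61% were without overlap and lower in the high group. A lower value in bulk tissue can come from fewer cells of a type or from less RNA per cell, and these cannot be told apart here. With 1 of 7, the set is near the share over all genes.

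**Figure D1:**
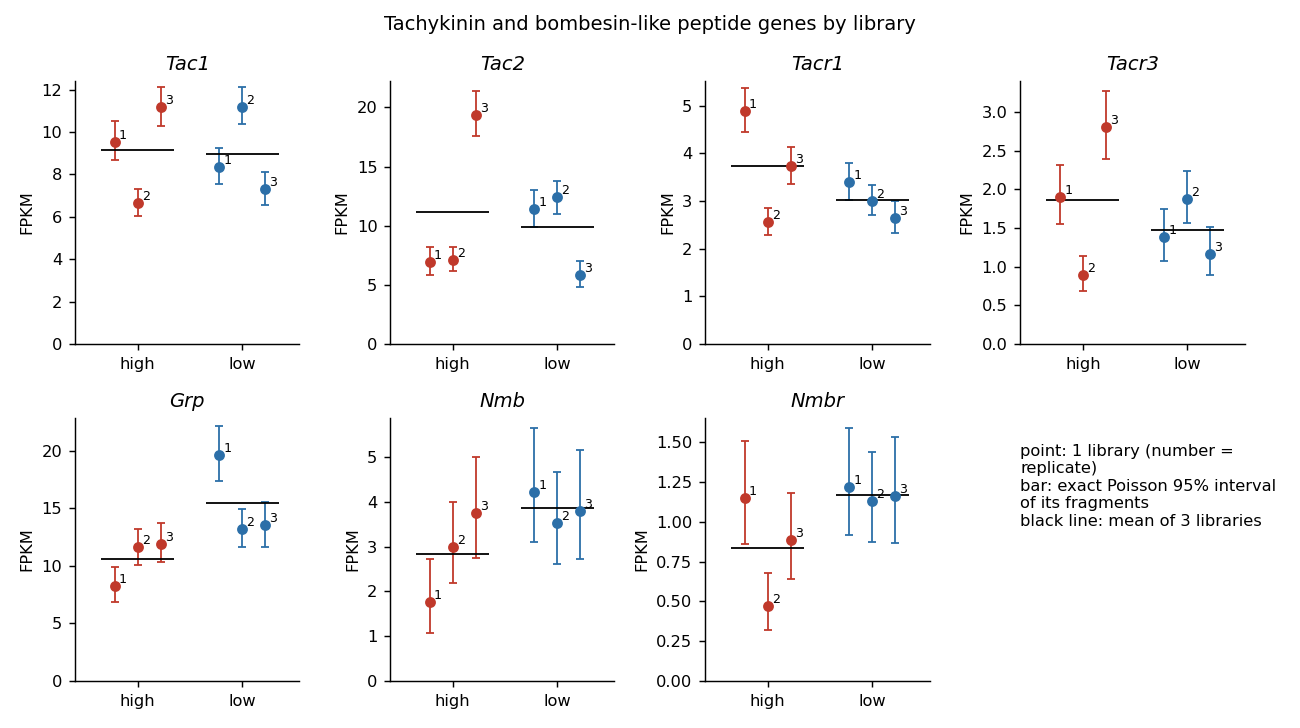
FPKM of the 7 genes (vertical axes from 0, each on its own scale) in 3 high and 3 low libraries, with the replicate number beside each point, the exact Poisson 95% interval of its fragments as a bar and the group mean as a black line. Grp is the gene without overlap between the groups, and high library 3 stands above the other libraries in Tac2 (19.4) and Tacr3 (2.81).

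By level per length, Grp, Tac2 and Tac1 formed an upper set with means over the 6 libraries of 13.0, 10.5 and 9.05 FPKM. Grp exceeded 71.7% of the genes in the table, Tac2 65.7% and Tac1 61.3%. Grp was above Tac2 in 5 of 6 libraries and Tac2 above Tac1 in 4 of 6, so the order within this set did not exceed the spread between libraries. Below it, Tacr1 (3.37) and Nmb (3.35) were level, with Tacr1 higher in 1 of 6 libraries. Tac1 was above Tacr1 in 6 of 6 libraries, by 1.95 to 3.73 times, and the ranges of this pair did not meet. Tacr3 followed at 1.67 and Nmbr at 1.00, with Tacr3 higher in 6 of 6 libraries although their ranges overlapped. The receptor genes thus lay in the lower part of the table, with Tacr1 above 32.5%, Tacr3 above 17.1% and Nmbr above 8.7% of its genes. The lowest mean in the table is 0.5 FPKM, so these shares hold among the genes it lists and not among all genes.

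Tac1 had 9.55, 6.67 and 11.2 FPKM in high libraries 1, 2 and 3 and 8.37, 11.2 and 7.31 in low libraries 1, 2 and 3. The top of each group was the same, 11.2, and so the groups overlapped over nearly their whole range. The values rested on 338 to 680 fragments, which gives a counting error of 3.83% to 5.44% per library, while the coefficient of variation between libraries was 25.1% for high and 22.5% for low libraries. The spread of Tac1 between libraries of 1 group was thus about as large in each group and well above what counting gives. The difference of the high minus the low group was 0.02 on the log2(FPKM + 1) scale (SE 0.191, 95% interval −0.42 to 0.46), with an adjusted p of 0.982 by limma. The interval leaves room for a difference of either sign, and the sign itself changed when single libraries were left out, from −0.13 without high library 3 to 0.21 without high library 2.

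Tac2 stood at 6.97, 7.14 and 19.4 FPKM in high libraries 1, 2 and 3, and at 11.4, 12.4 and 5.87 FPKM in low libraries 1, 2 and 3. High library 3 was the highest of the 6 by a wide gap, low library 3 was the lowest, and the other 2 high libraries lay below 2 of the 3 low libraries. The Poisson interval of high library 3, 17.6 to 21.4 FPKM from 413 fragments, did not reach the interval of any other library, of which the highest ran from 11.0 to 13.8. The pooled within-group SD of Tac2, 0.662 on the log2(FPKM + 1) scale, exceeded that of 99.3% of the tested genes, whose median was 0.108. The log2 difference was 0.07 (SE 0.387, 95% interval −0.82 to 0.97), with an adjusted p of 0.967 by limma. Without high library 3 it was −0.37, and without low library 3 it was −0.23, so that the sign of the mean difference rested on single libraries.

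The balance of both tachykinin precursors varied between libraries as well. Tac2 relative to Tac1 on the FPKM scale was 0.730, 1.07 and 1.73 in high libraries 1, 2 and 3 and 1.36, 1.10 and 0.803 in low libraries 1, 2 and 3. Each group held libraries with Tac2 above and below Tac1, and the range of the high group covered that of the low group.

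Tacr1, the substance P receptor gene, stood at 4.89, 2.56 and 3.73 FPKM in high libraries 1, 2 and 3, and at 3.40, 3.01 and 2.65 FPKM in low libraries 1, 2 and 3. High libraries 1 and 3 were the highest of the 6 and high library 2 was the lowest, so the high group enclosed the low group. With 234 to 453 fragments per library, the interval of high library 1 (4.45 to 5.36) lay above those of the other 5. The mean was 3.73 ± 1.16 against 3.02 ± 0.373 FPKM (SD, n = 3 each). Its log2 difference was 0.21 (SE 0.173, 95% interval −0.19 to 0.61), with an adjusted p of 0.737 by limma. Leaving out high library 1 gave 0.04, and leaving out high library 2 gave 0.40 (adjusted p = 0.320 by limma).

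Tacr3, the neurokinin B receptor gene, stood at 1.90, 0.895 and 2.81 FPKM in high libraries 1, 2 and 3, and at 1.38, 1.88 and 1.17 FPKM in low libraries 1, 2 and 3. The high group held both the highest and the lowest value of the 6. The fragments numbered 60 to 163, and the interval of high library 3 (2.39 to 3.27 FPKM) lay above the others, while that of high library 2 (0.689 to 1.14) overlapped those of low libraries 1 and 3. The mean was 1.87 ± 0.956 against 1.48 ± 0.363, and the log2 difference was 0.16 (SE 0.239, 95% interval −0.39 to 0.71; adjusted p = 0.848 by limma). Without high library 2 it was 0.43 (adjusted p = 0.402), and without high library 3 it was −0.07. Tacr1 exceeded Tacr3 in every library, by 2.57, 2.86 and 1.33 times in high libraries 1 to 3 and by 2.47, 1.60 and 2.26 times in low libraries 1 to 3, so high library 3, where Tacr3 was highest, had the smallest ratio.

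Tac1, Tac2 and Tacr3 shared part of their order over the libraries. High library 3 ranked 1, 1 and 2 of 6 for Tacr3, Tac2 and Tac1, low library 2 ranked 3, 2 and 1, and low library 3 ranked 5, 6 and 5. High library 1 differed between these genes, at ranks 2, 5 and 3. High library 2 was lowest for Tac1, Tacr1, Tacr3 and Nmbr but ranked 4 for Tac2. These orders cut across the groups. Summed over 11 markers of striatal projection neurons other than Tac1, expression was 441, 221 and 325 FPKM for high libraries 1, 2 and 3 and 264, 382 and 204 FPKM for low libraries 1, 2 and 3, so high library 2 and low library 3 were lowest there. The highest striatal sum was that of high library 1, which ranked 5 for Tac2. The summed level of 10 amygdala and subpallial factors was 56.3, 41.6 and 55.3 against 50.3, 53.3 and 41.4 FPKM, with the same pair of libraries lowest. The 13 cortical and basolateral excitatory markers had their highest sums in that pair, at 437 and 408 FPKM, and their lowest in high library 3, at 264. Among single markers, Penk ran from 62.1 to 207 FPKM and Adora2a from 1.20 to 15.0. The part of these markers in the tachykinin values was not tested.

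**Figure D2:**
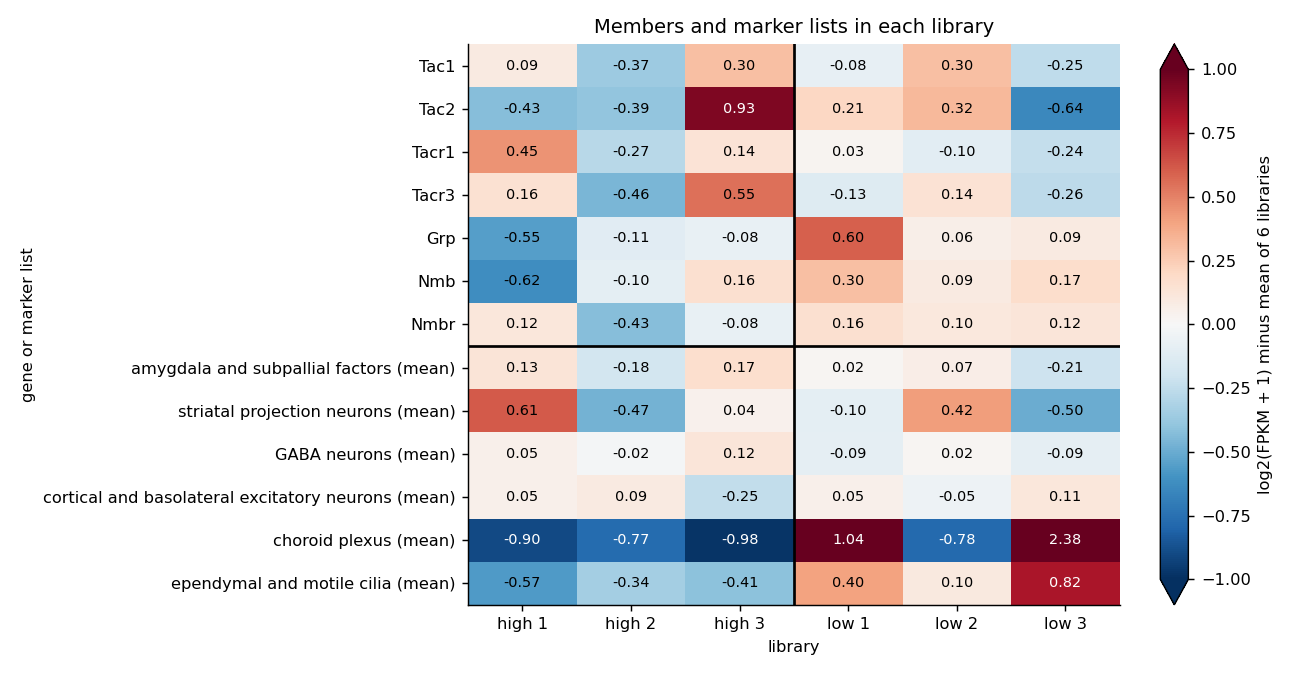
Log2(FPKM + 1) minus the mean of the 6 libraries for each gene (upper block) and the mean of such values over the genes of each marker list (lower block), with libraries in columns and colour capped at 1. High library 2 and low library 3 are below the mean in Tac1, Tac2, Tacr1 and Tacr3 and in the striatal and amygdala lists, and low libraries 1 and 3 stand out in the choroid plexus list.

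Grp stood at 8.27, 11.6 and 11.9 FPKM in high libraries 1, 2 and 3, and at 19.6, 13.2 and 13.5 FPKM in low libraries 1, 2 and 3. Every high library was below every low library, but the gap between 11.9 and 13.2 was narrow, and the Poisson intervals of high library 3 (10.3 to 13.7) and low library 2 (11.6 to 14.9) overlapped. High library 1 (6.89 to 9.86) and low library 1 (17.4 to 22.1) had intervals apart from all others. The means were 10.6 ± 2.01 and 15.4 ± 3.65 FPKM (SD, n = 3 each). The log2 difference was −0.50 (SE 0.174, 95% interval −0.90 to −0.09), with an unadjusted p of 0.0216 and an adjusted p of 0.575 by limma. The exact 2-sided permutation p of the group means was 0.1, the smallest that 3 against 3 can give. The libraries that set the size were high library 1, without which the difference was −0.34, and low library 1, without which it was −0.32 (adjusted p = 0.884).

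Nmb stood at 1.77, 2.99 and 3.76 FPKM in high libraries 1, 2 and 3, and at 4.23, 3.53 and 3.80 FPKM in low libraries 1, 2 and 3. High library 1 was the lowest and low library 1 the highest, as for Grp, and the groups overlapped because high library 3 was above low library 2. Nmb is a short gene with only 20 to 50 fragments per library, so that 1 value carries a counting error of 14.1% to 22.4%. In the low group the coefficient of variation between libraries, 9.15%, was below the 14.8% that counting alone gives, and in the high group it was 35.3% against 16.4%. The mean was 2.84 ± 1.00 against 3.86 ± 0.353 FPKM, with a log2 difference of −0.37 (SE 0.182, 95% interval −0.79 to 0.05; adjusted p = 0.605 by limma). Without high library 1, which rested on 20 fragments, the difference was −0.15. Nmb shares 163 exon bases with Sec11a, a gene on the same strand that was at 3.05 to 4.03 FPKM, so fragments in that stretch are uncertain.

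Nmbr, the neuromedin B receptor gene, stood at 1.15, 0.473 and 0.883 FPKM in high libraries 1, 2 and 3, and at 1.22, 1.13 and 1.16 FPKM in low libraries 1, 2 and 3. High library 2 was the low point, at 29 fragments, and high library 1 lay within the range of the low group. The 3 low libraries agreed to a coefficient of variation of 3.99%, under the 13.3% that counting gives on average, while the high libraries varied by 40.9%. The mean was 0.835 ± 0.341 against 1.17 ± 0.0467, and the log2 difference was −0.26 (SE 0.146, 95% interval −0.60 to 0.08; adjusted p = 0.638 by limma). Without high library 2 it was −0.11. Because the added 1 FPKM compresses genes near this level, the same difference was −0.51 with 0.1 FPKM added and −0.62 by voom on the recovered fragments (adjusted p = 0.601). Nmbr shares 504 exon bases with B230364G03Rik, which is annotated on the opposite strand, and the sources used here do not say if counting used the strand.

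The ratio of Grp to Nmb varied less over the libraries than Grp did. Grp was 4.68, 3.88 and 3.17 times Nmb in high libraries 1 to 3 and 4.64, 3.73 and 3.54 times Nmb in low libraries 1 to 3, while Grp itself spanned 2.37 times from its lowest to its highest library. By the mean absolute difference between profiles, which was 0.124 on the log2(FPKM + 1) scale, Nmb ranked 5 among the genes nearest to Grp, and Grp ranked 11 among those nearest to Nmb, out of all tested genes with an official symbol. Markers of ependymal cells and of the choroid plexus also had lower values in the high group, with 0 called. Of 8 ependymal and motile cilia genes, 7 were without overlap and lower in the high group, where 7.61% of all tested genes were. The 8 genes summed to 11.9 to 14.7 FPKM against 21.8 to 43.7. The 10 choroid plexus genes summed to 41.5 to 111 FPKM per high library, against 1337, 82.1 and 4156 FPKM in low libraries 1, 2 and 3. Among other lists, 9 of 12 tested excitatory and 5 of 6 astrocyte genes had a lower mean in the high group, with 0 called. Several lists had mostly higher values there, also with 0 called. Of 11 GABA neuron genes, 8 had a higher and 3 a lower mean, with sums of 693 to 765 FPKM for high against 645 to 651 for low libraries. Sst made up much of each sum, at 409, 410 and 425 against 381, 345 and 370 FPKM. With each gene taken relative to its own mean on the log2(FPKM + 1) scale, the groups overlapped. The list means were then 0.05, −0.02 and 0.12 for high and −0.09, 0.02 and −0.09 for low libraries 1, 2 and 3. Of 7 endothelial and mural genes, 6 had a higher mean in the high group. All 6 tested leptomeningeal genes had a higher mean there, and the 7 in the table summed to 56.8, 12.2 and 30.0 FPKM in high libraries 1, 2 and 3 and to 9.19, 18.6 and 10.8 FPKM in low libraries 1, 2 and 3. High library 1, where Grp and Nmb were lowest, was the highest of the 6 in that list, and low library 1, where Grp and Nmb were highest, was the lowest. This was not particular to the leptomeningeal list. The same libraries were highest and lowest in the endothelial and mural sums, at 92.8 and 56.7 FPKM, and in the oligodendrocyte sums, at 410 and 315. The GABA neuron sums differed, with the highest, 765 FPKM, in high library 3. All 8 oligodendrocyte genes had a higher mean in the high group, with sums of 345 to 410 against 315 to 351 FPKM. Of these genes, 4 were without overlap and higher, where 7.33% of all tested genes were. With low libraries 1 and 3 left out together, the difference was −0.31 for Grp and −0.28 for Nmb. The spread then comes from the high group, and the lone low library is taken to share it. Without low library 1 alone the difference was −0.32 for Grp and −0.32 for Nmb. Without low library 3 alone, which had the highest choroid plexus sum, it was −0.58 and −0.38. The part of these markers in the values of Grp and Nmb was not tested.

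**Figure D3:**
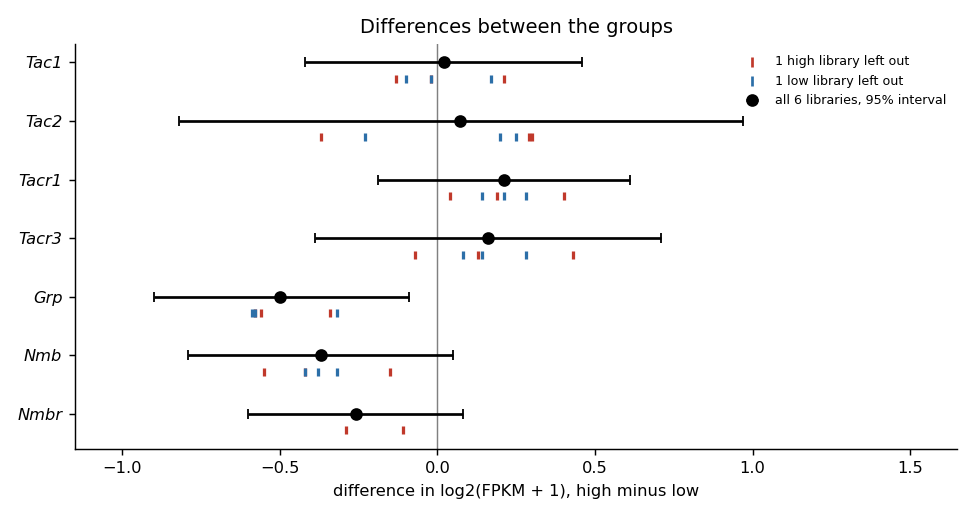
Difference in log2(FPKM + 1), high minus low, for each gene with its 95% interval over all 6 libraries (black), and the same difference with 1 high (red) or 1 low (blue) library left out. The interval of Grp, −0.90 to −0.09, excludes 0 before adjustment, those of the other 6 genes include 0, and Nmbr has fewer left-out values because its mean fell under 1 FPKM without 4 of the libraries.

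The spread between libraries of 1 group was wide for the set as a whole. The median pooled within-group SD of the 7 genes was 0.291 on the log2(FPKM + 1) scale, against 0.108 over all 12026 tested genes. Of the genes tested, 96.4% had a smaller SD than Tac1, 94.4% than Tacr1, 98.0% than Tacr3, 95.0% than Grp, 95.3% than Nmb and 85.9% than Nmbr. The tested genes were not matched for level or fragments, and counting error is part of the SD, most of all for Nmb and Nmbr. For Tac1, Tac2, Tacr1, Tacr3 and Grp the variation between libraries exceeded counting error in both groups, and the ratio was largest for Tac2 in the high group, at 63.8% against 6.38%. For Nmb and Nmbr it exceeded counting error among high libraries and was below it among low libraries, a difference that was not tested. The median log2 difference was 0.0180 over the 7 genes, with 4 above and 3 below 0, and 0.000181 over all tested genes.

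**Figure D4:**
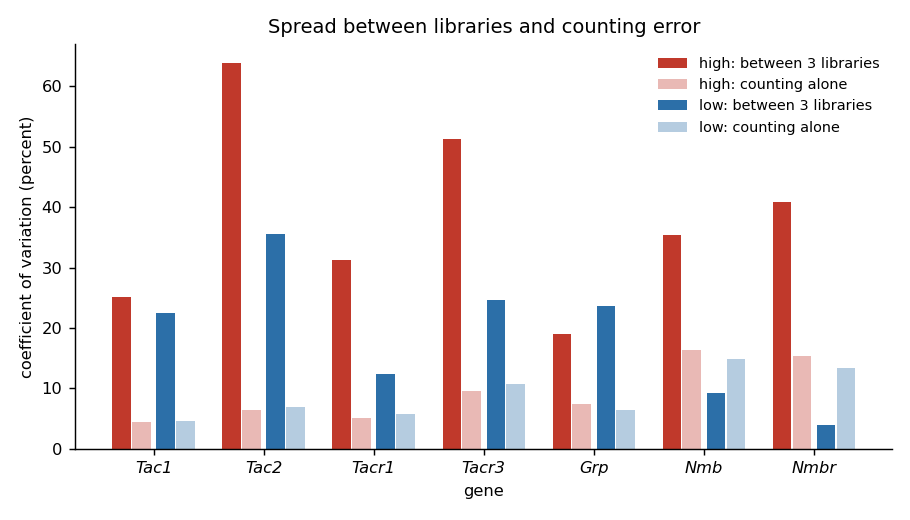
Coefficient of variation in percent between the 3 libraries of each group (solid bars) and the value that counting of fragments alone gives (pale bars) for each gene, high in red and low in blue. Tac2 in the high group has the highest bar (63.8%), and Nmb and Nmbr in the low group are the bars below their counting error.

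Genes that act after the receptors gave no call. Of 18 tested genes of Gq signalling, 9 were above and 9 below 0, with a median log2 difference of 0.00, and 0 passed by limma while 1 had an unadjusted p under 0.05. That gene was Arrb1, which encodes a beta-arrestin that ends receptor signalling, at 42.1 ± 1.61 FPKM for high against 37.9 ± 1.28 for low libraries (log2 difference 0.15, SE 0.0602; adjusted p = 0.582 by limma). Its groups did not overlap, as was also the case for the second beta-arrestin gene Arrb2 (27.4 ± 2.15 against 24.8 ± 0.735). Of the protein kinase C genes, Prkcb was at 27.9 ± 2.50 against 24.4 ± 2.10 FPKM and Prkce at 65.3 ± 5.38 against 73.2 ± 3.60, the latter without overlap. Over the list 3 genes were without overlap and higher and 1 was without overlap and lower, where 7.33% and 7.61% of all tested genes were, and an unadjusted p under 0.05 was found for 8.39% of all tested genes.

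Genes that cut, amidate or degrade the peptides gave no call either. Of 11 tested, 4 were above and 7 below 0, with a median log2 difference of −0.02. Limma called 0 of them, and for 0 was the unadjusted p below 0.05. Pam, the enzyme that amidates the carboxyl end of tachykinins and bombesin-like peptides, was at 17.3 ± 0.169 FPKM against 15.9 ± 1.17. It was the 1 gene of 11 without overlap, where 14.9% of all tested genes did not overlap in either direction. The proprotein convertase Pcsk5 was at 1.63 ± 0.371 against 2.21 ± 0.323, and Pcsk1n, an inhibitor of the convertase that cuts many neuropeptide precursors, at 140 ± 2.27 against 131 ± 11.7. Ace, a peptidase that degrades substance P among other peptides, was at 7.38 ± 1.44 against 16.9 ± 14.4 FPKM. The neprilysin gene Mme, whose product also degrades tachykinins, was not analysed here.

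Genes with the most similar profile were named by the smallest mean absolute difference from each gene over the 6 libraries, each profile taken relative to its own mean on the log2(FPKM + 1) scale. The likeness is a description over 6 libraries in which many genes share an order. For Tac1 they were Prss30 (0.0364), Pou3f4 (0.0476) and Slc7a11 (0.0549), and for Tacr3 they were Pou3f4 (0.0777), the neurotensin gene Nts (0.0844) and Gad2 (0.0915), which encodes a GABA-synthesising enzyme. Tacr3 was the member nearest to Tac1 (0.103). The genes nearest to Tac2 were farther away, with Crh (0.228), the gene of corticotropin-releasing hormone, Ddc (0.230) and Peg10 (0.238). For Tacr1 they were H2-D1 (0.0462), Tunar (0.0570) and Iah1 (0.0663). For Grp they included Zfp955a (0.101) and Rxfp3 (0.121). For Nmb they were Zmynd10 (0.10), which serves the assembly of motile cilia, Enkur (0.107) and Cox4i2 (0.111). For Nmbr they were Suz12 (0.0237), Ogfrl1 (0.0288) and Tmem68 (0.0332), where a smaller value also reflects the low level and narrow log2 range of this gene.

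The authors' deposited table lists, from untransformed values, a log2 fold change of −0.543 for Grp with an unadjusted p of 0.115, the smallest p among the 7 genes there. In the authors' deposited table the other 6 genes have log2 fold changes of −0.443 for Nmb, −0.486 for Nmbr, 0.306 for Tacr1, 0.339 for Tacr3, 0.178 for Tac2 and 0.028 for Tac1, all with unadjusted p-values above that of Grp.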

How the data were processed

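RNA was measured in 6 libraries, 3 per group. Values are FPKM in a table deposited by the authors, made with fastp, HISAT2 and StringTie on GRCm38 per the submitters' processing notes, without versions. The deposited table also has the authors' log2 fold change and an unadjusted p-value. No value is 0. FPKM times GENCODE M21 exon length and a library total gave whole numbers, within 0.01, for 11970 of 13170 genes. Ratios between libraries alone gave them for 1198 more, Grp included, where a common factor would go unseen, and 2 genes were not recovered. Intervals cover counting error only. The main test used log2(FPKM + 1), genes with a mean of at least 1 FPKM, and limma 3.58.1 (R 4.3.3) with a variance trend, 2-sided, Benjamini-Hochberg at 0.05 over 12026 genes. A run on simulated data gave every gene the same noise SD, so it cannot show what the test detects in genes of wider spread. The added 1 understates changes of low genes. Python 3.11.15, scipy 1.17.1 and Biopython 1.88 were also used. Members and lists were chosen with earlier results of these data known. Named genes are the members, up to 4 genes of each pathway list by smallest p, the 3 nearest profiles and the highest markers; Arrb1 and others follow this rule, while Adora2a, Drd1 and Esr1 were picked from the marker lists after their values were seen. Some genes that the rule takes are not reported here. Alternatives were other pseudocounts, filters, scalings, trends, weights, a replicate block, a GC and length trend, left-out libraries and, added after seeing the data, voom on the recovered fragments.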

Additional observations from a re-analysis of the deposited data

How the results depend on the processing

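None of the 19 alternatives called any gene of the whole table, any of the 7 genes or any pathway gene by limma, with 350 to 1567 genes of the table and 0 to 3 of the 7 at an unadjusted p under 0.05. Grp stayed below 0 under all 19, from −0.68 with array weights to −0.31 without low libraries 1 and 3, with adjusted p from 0.211 to 0.980, and Nmb, Nmbr and Tacr1 kept their sign wherever they were tested. The sign of the others changed. Without low libraries 1 and 3 the log2 difference was −0.29 for Tac1, −0.28 for Tac2 and −0.06 for Tacr3, voom gave Tac1 −0.02, and array weights gave Tac2 −0.07. Leaving out each library in turn gave −0.13 to 0.21 for Tac1, −0.37 to 0.30 for Tac2 and −0.07 to 0.43 for Tacr3. The cause was not tested. With the replicate number as a block, Grp had a log2 difference of −0.50 with an adjusted p of 0.757, and 0 genes were called. Same-numbered libraries deviated with correlations of −0.0939, −0.206 and −0.156, so no positive likeness was seen. Such correlations over all tested genes cannot show whether the numbers pair the samples. Depth limits Nmb and Nmbr most, with as few as 20 and 29 fragments in a library. Nmb, Tacr1, Tacr3 and Nmbr had no value with a filter of 5 FPKM.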
